A study of Caenorhabditis elegans with 2 samples.

Results

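The genes described here code for the retinoblastoma (Rb) and E2F regulators of C. elegans and for the cyclins, cyclin-dependent kinases (CDKs) and inhibitor that act with them. They are 10 of the 19973 protein-coding genes on the 6 nuclear chromosomes: lin-35, efl-1, efl-2, dpl-1, cyb-1, cye-1, cyd-1, cdk-1, cdk-4 and cki-1. They were chosen by name, for their role, with earlier results of these data known, as were the gene lists set beside them below. For each gene, every ChIP-seq region was taken whose summit lay within the gene or in the 2000 bp upstream of its 5′ end. The data were chromatin immunoprecipitation and sequencing (ChIP-seq) of SUP-37, a protein known from suppressor genetics of pharynx development, in whole larvae. The single group held 2 biological replicates of the strain OP611, which is unc-119(tm4063) and carries the integrated transgene wgIs611 with sup-37::TY1::EGFP::3xFLAG and the rescuing unc-119(+). The animals were mixed sex L1 larvae, starved after bleaching and aged 6 hours, and their chromatin was sonicated to 200 to 800 bp. The sample description names an antibody against GFP, whereas the antibody label reads sup-37, and no untagged strain was analysed here.

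LIN-35 is the C. elegans member of the Rb family of pocket proteins. With an E2F protein, its partner DP and the MuvB proteins it forms the DREAM complex, which keeps cell cycle genes silent in cells that do not divide. Cyclin D with CDK-4 is known to relieve Rb repression in G1, cyclin E acts at entry into S phase, cyclin B with CDK-1 drives mitosis, and CKI-1 holds cells in G1. L1 larvae that hatch without food arrest, and their blast cells do not divide until they feed. In addition, lin-35 belongs to the genetic pathway of pharynx development in which sup-37 was found.

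The authors deposited a list of 30000 peak and background regions for each replicate and for the pool of both, and a list of 924 peaks that passed their irreproducible discovery rate (IDR) threshold, a filter on how alike 2 replicates rank their regions. The seventh column of each list holds the authors' signal, on a scale that is not stated and that differs between lists, so ranks by signal (1 is the strongest) were compared and a region counted as strong at rank 924 or better. The 924 IDR peaks were the 924 strongest pooled regions, so a pooled rank is also an IDR rank. A single IDR peak need not be strong in both replicates. The lowest IDR signal was 116.5 and the next pooled region had 116.4. The lists hold no read counts, so depth is unknown, and a region far down a list that includes background regions is not a peak call. In whole larvae, binding in few cells and weak binding in many cells cannot be told apart.

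SUP-37 regions of IDR strength lay at lin-35, efl-1, cyb-1 and cye-1, which is 4 of the 10 genes, against 5.30% of all protein-coding genes. Each of these 4 had such a summit within 1000 bp upstream of its 5′ end, and cye-1 had another inside the gene. Among the 924 strongest regions of replicate 1 the same 4 genes had a summit, where the background was 5.10%. In replicate 2 the genes were lin-35, efl-1 and cye-1, which is 3 of 10 against 5.53%. Counting only summits of the replicates within 200 bp of each other left lin-35, efl-1 and cye-1, again 3 of 10, against 3.54% of all genes. At the promoter alone, set as 1000 bp upstream to 200 bp downstream, IDR summits lay at 4 of 10 genes (40%) and at 3.44% of all genes. That count was 3 with the strongest regions of replicate 1 (2.94% of all genes) and 2, lin-35 and efl-1, with those of replicate 2 (3.57%). Giving each IDR summit to its nearest 5′ end within 2000 bp, with no promoter window, left 2 genes (3.14% of all genes). These were efl-1 and cye-1, the latter through its summit inside the gene. The promoter summits of lin-35, cyb-1 and cye-1 were each nearer to the 5′ end of a neighbour. The windows of the 10 genes had a median length of 5327.5 bp, from 2866 to 14527 bp, against a median of 4027 bp over all genes, so longer windows had more room for a summit. In all, the 10 windows held 29 pooled regions, of which 5 were IDR peaks, with 26 regions of replicate 1 and 34 of replicate 2.

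**Figure D1:**
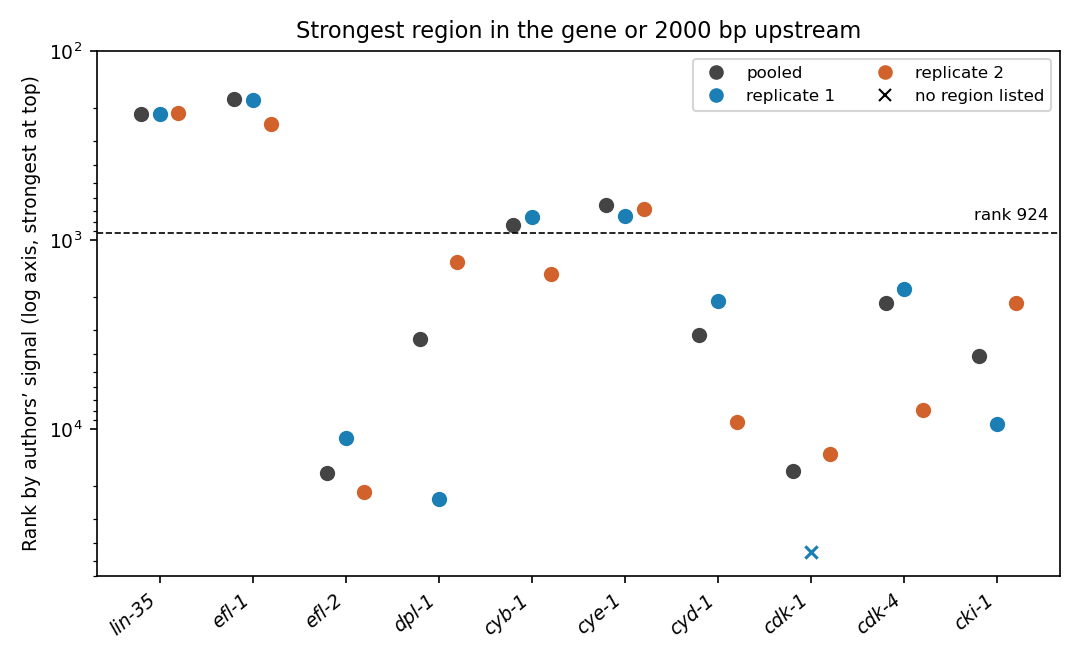
Rank by the authors' signal (log axis, strongest at the top) of the strongest region in each gene or 2000 bp upstream, in the pooled list and in both replicates. The strongest region of a gene need not lie at the same place in each list. The dashed line is rank 924: lin-35, efl-1 and cye-1 lie above it in all 3 lists, cyb-1 in the pool and replicate 1, and the other 6 genes in none, with no region listed for cdk-1 in replicate 1.

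The plot of best ranks sets lin-35 and efl-1 apart from the other 8 genes. Next in each list came cye-1, and the ranks of the remaining genes overlapped in part. lin-35 and efl-1 ranked between 179 and 245 in every list, cye-1 and cyb-1 between 658 and 1524, and the other 6 genes at 1305 or lower in the order. In replicate 2, dpl-1 (1305) ranked above cyb-1 (1524). Replicates ranked the strongest genes alike and some weak ones far apart. For lin-35 the best ranks were 217 in the pool, 217 in replicate 1 and 213 in replicate 2. For dpl-1 they were 3341, 23496 and 1305. The replicate 1 rank belongs to another region, 1749 bp upstream, whereas the pool and replicate 2 had theirs 275 bp upstream.

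Among the Rb and E2F genes, efl-1, which codes for the E2F protein of the DREAM complex, had the strongest region. The gene lies on the minus strand of chromosome V (16958590 to 16965675, ce11). The IDR peak spanned 16965680 to 16966063, and its summit was intergenic, 197 bp before the gene's first base. The signal was 262 at rank 179 in the pool, 145 at rank 182 in replicate 1 and 109 at rank 245 in replicate 2. The replicate summits were 10 and 2 bp from the pooled one, close to the medians over IDR peaks of 8 and 10 bp. The efl-1 5′ end was the nearest of any protein-coding gene, and the next, fbxa-90, was 942 bp away on the opposite strand. A weaker region 199 bp farther upstream ranked 2187 in the pool, 2728 in replicate 1 and 17648 in replicate 2. The 201 bp around the efl-1 summit (chrV:16965772-16965972, minus strand, WBcel235 genome) are printed with the E2F word and the word TGCGTC in capitals, because they hold both on either side of the summit.
efl-1: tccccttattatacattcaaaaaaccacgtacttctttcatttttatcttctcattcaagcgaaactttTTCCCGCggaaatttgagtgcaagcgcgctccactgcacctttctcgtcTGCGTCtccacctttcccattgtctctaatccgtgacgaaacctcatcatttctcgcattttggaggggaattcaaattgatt
The E2F word searched was any of TTTCCCGC, TTTGGCGC, TTTCGCGC and TTTGCCGC on either strand, and capitals mark the shorter form without the first T. The middle of the E2F word TTTCCCGC lay 28.5 bp upstream of the summit in the direction of the gene, and that of TGCGTC 20.5 bp on the other side. Such a match describes the sequence and is not a measured binding site of E2F.

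lin-35, the Rb-family gene (chromosome I, 5807709 to 5815637, plus strand), had the other strong promoter region. Its IDR peak covered 5807225 to 5807608, with the summit 292 bp upstream in intergenic sequence. The signal was 246 at rank 217 in the pool, 134 at rank 217 in replicate 1 and 115 at rank 213 in replicate 2. No other of the 10 genes had ranks as close together across the 3 lists. The summit is nearer to another gene: vps-51, transcribed the opposite way, starts 126 bp from it, and the 5′ ends of vps-51 and lin-35 are 418 bp apart. The replicate summits lay 80 and 59 bp from the pooled summit, both toward lin-35, and a separate pooled region at rank 4082 had its summit 82 bp upstream of lin-35. Another pooled summit within 250 bp was found for 22.0% of IDR peaks. Which of the pair of genes the region belongs to cannot be told from position. None of the E2F words, and none of the other words searched, was in the 201 bp around the pooled summit.

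**Figure D2:**
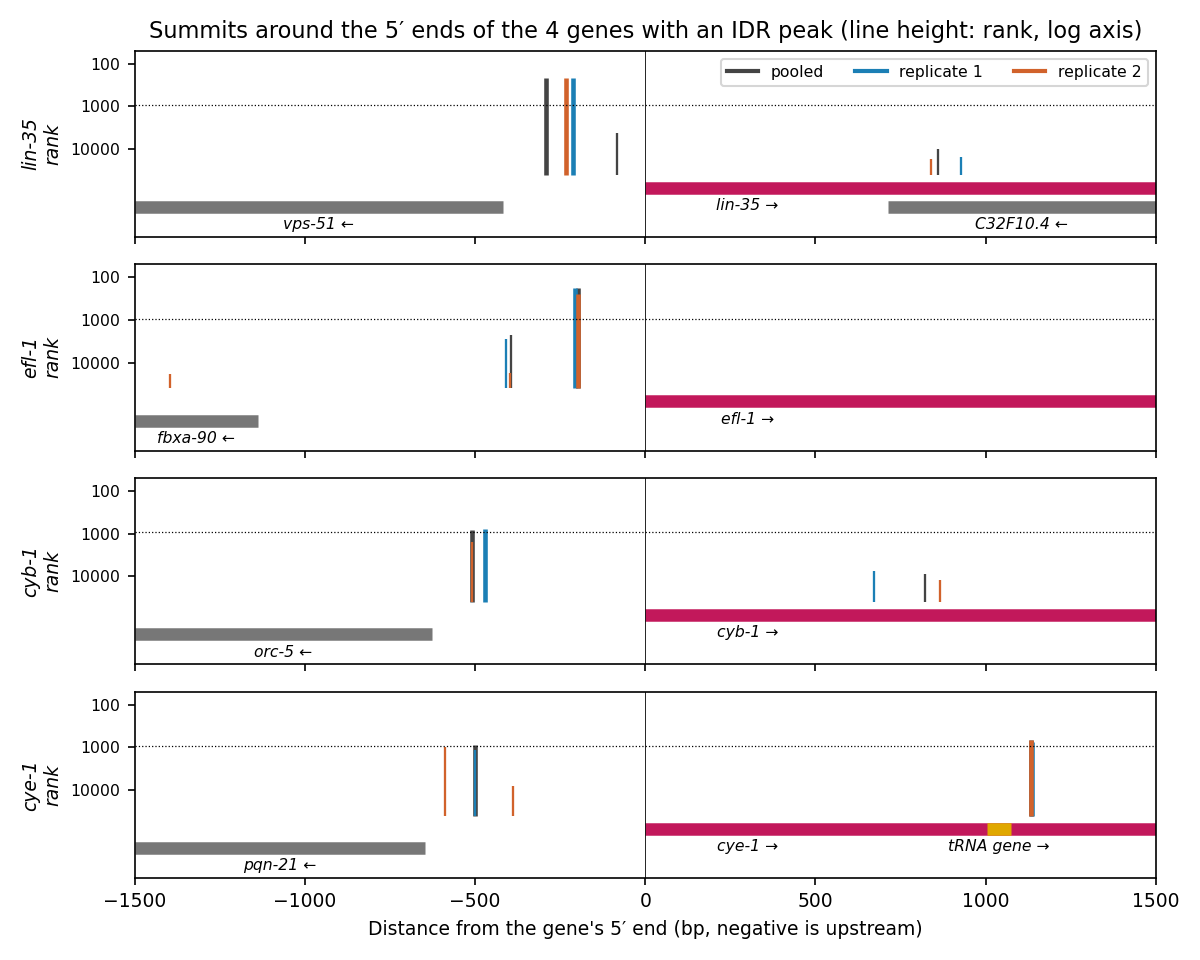
Summits around the 5′ ends (0 on the x axis, in bp) of the 4 genes with an IDR peak. Line height gives the rank on a log axis for the pool and both replicates (thick lines, rank 924 or better), the dotted line is at rank 924, red bars are the genes and grey bars their neighbours, with arrows for the direction of transcription. All 4 promoter summits lie between oppositely transcribed genes, and the cye-1 summit inside the gene lies 59 bp from a tRNA gene.

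The DP partner gene dpl-1 and the second E2F gene efl-2 had no region of IDR strength. The strongest pooled region of dpl-1 (chromosome II, 9169910 to 9172565, plus strand) had its summit 275 bp upstream, at 9169635, with a signal of 76.6 at rank 3341, which is 65.7% of the lowest IDR signal. Replicate 2 had a region with the same summit at rank 1305 and a signal of 47.2, whereas replicate 1 listed none within 200 bp. The place is shared, since the summit lies within T23G7.2, which is on the opposite strand, in an exon of its noncoding transcript. For efl-2 (chromosome II, 13406140 to 13411895, plus strand) the strongest pooled region lay 1109 bp downstream of the 5′ end, in an intron, with a signal of 50.9 at rank 17034. Replicate 2 placed it at rank 22072 and replicate 1 had no region within 200 bp. The strongest efl-2 region of replicate 1 lay elsewhere, 4205 bp downstream at rank 11218, and the pool had one 4213 bp downstream at rank 20158. efl-2 was the only one of the 10 genes with no pooled region at its promoter, where replicate 1 listed one at rank 28834.

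Of the cyclin genes, cyb-1 and cye-1 had IDR peaks and cyd-1 had none. cyb-1, which codes for a B-type cyclin, lies on chromosome IV (10735216 to 10737177, plus strand). Its IDR peak, 10734515 to 10734898, was highest 509 bp upstream, between genes. The signal was 122 at rank 833 in the pool, 75.9 at rank 758 in replicate 1 and 44.7 at rank 1524 in replicate 2. Replicate 2 thus had a region at the same place, 1 bp from the pooled summit, but not among its 924 strongest. The nearest gene was again a neighbour: orc-5, a subunit gene of the origin recognition complex of DNA replication, starts 119 bp from the summit on the other strand, 628 bp from cyb-1. The sequence around this summit (chrIV:10734607-10734807, plus strand) is given because it holds an E2F word in its shorter form only, with its middle 51 bp from the summit.
cyb-1: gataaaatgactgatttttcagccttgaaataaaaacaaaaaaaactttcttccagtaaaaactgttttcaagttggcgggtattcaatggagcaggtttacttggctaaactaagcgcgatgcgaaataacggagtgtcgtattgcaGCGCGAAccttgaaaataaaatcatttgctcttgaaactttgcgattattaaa
On the printed strand the word reads in reverse complement, in capitals.

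cye-1, which codes for cyclin E (chromosome I, 6780799 to 6784397, plus strand), was the only one of the 10 genes with more than 1 IDR peak. The promoter peak, 6780106 to 6780489, had its summit 501 bp upstream, and it ranked 880 with a signal of 119.5, near the lowest in the IDR list (116.5). Replicate 1 had a region with the same summit at rank 1135 and replicate 2 one 87 bp away at rank 979, so that neither replicate alone put it among its 924 strongest. The 5′ end of pqn-21, on the other strand, lay 147 bp from the summit and 648 bp from that of cye-1. The other peak, 6781741 to 6782124, was inside the gene, in an intron 1134 bp downstream of the 5′ end. It was the stronger one, with a signal of 138 at rank 658 in the pool, 76.0 at rank 751 in replicate 1 and 61.3 at rank 689 in replicate 2. The replicate summits were 1 and 0 bp from the pooled one. A tRNA gene on the plus strand (WBGene00022955, 6781803 to 6781874) lies in the same intron and ends 59 bp from the summit. The words also differed: the promoter window held 2 E2F words, TTTCGCGC with its middle 5.5 bp and TTTGCCGC 24.5 bp from the summit, and the intron window held none. Of the 3 genes counted in both replicates, cye-1 was counted through the intronic peak.

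For cyd-1, which codes for cyclin D, the pooled list held 8 regions over a long gene (chromosome II, 12980591 to 12993117, plus strand), replicate 1 held 9 and replicate 2 held 6. The strongest pooled region had a signal of 77.6 at rank 3183, which is 66.6% of the lowest IDR signal. Its summit lay 7567 bp downstream of the first 5′ end and 65 bp upstream of the 5′ end of a second annotated transcript, which starts 7632 bp into the gene. Replicate 1 had it at rank 2106, with the summit 33 bp away, and replicate 2 listed no region within 200 bp. At the first promoter the only pooled region, 123 bp downstream, ranked 28617. Replicate 2 had its strongest cyd-1 region there, 125 bp downstream at rank 9188, and replicate 1 listed none at this promoter.

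**Figure D3:**
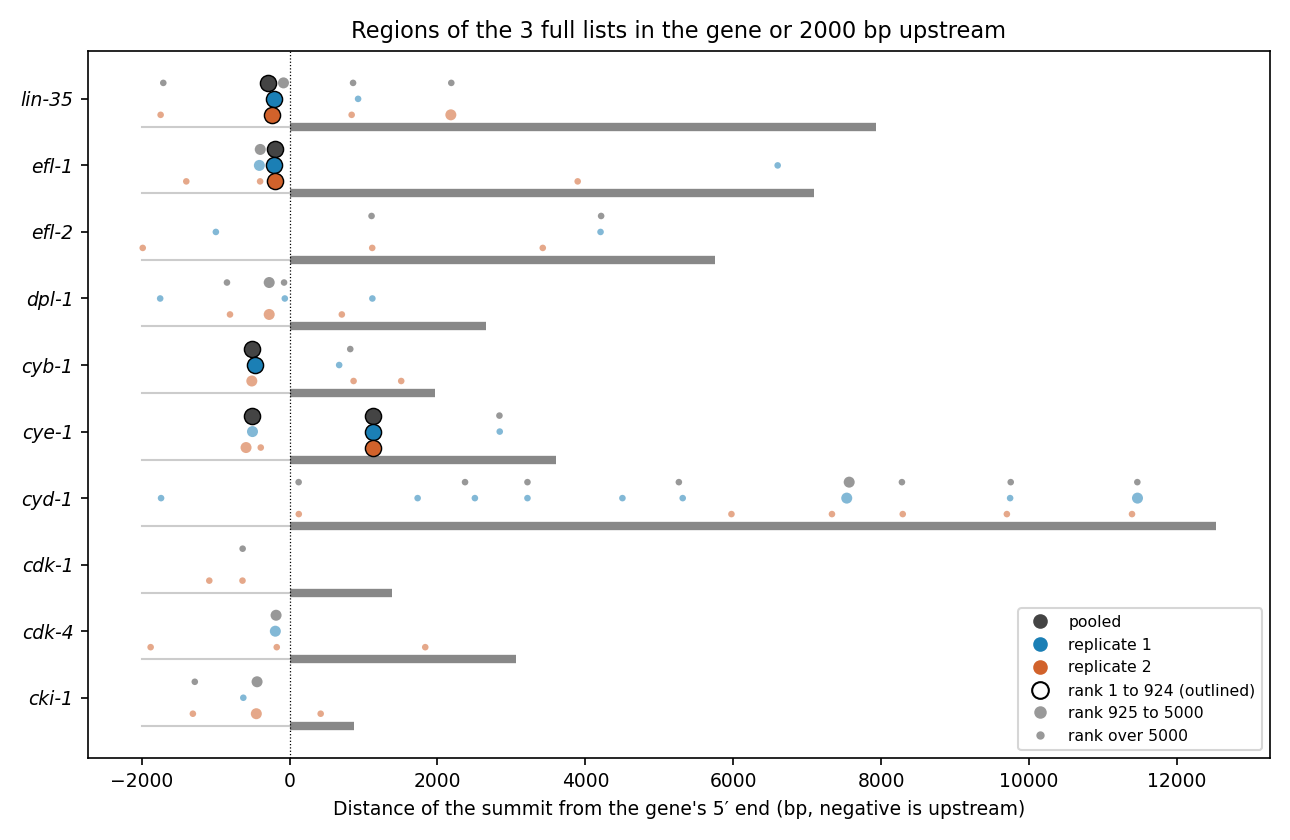
Every region of the pooled list and of both replicates with its summit in one of the 10 genes or the 2000 bp upstream, by distance from the 5′ end in bp (negative is upstream; dark bars are the genes, thin lines the upstream stretch). Point size falls in 3 classes of rank (to 924, 925 to 5000 and over 5000), and the outlined points of rank 924 or better lie at lin-35, efl-1, cyb-1 and cye-1 only.

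Neither kinase gene had a region of IDR strength. cdk-4, the partner kinase of cyclin D (chromosome X, 13515856 to 13518911, minus strand), came nearest to the IDR list, by pooled rank, of the 6 genes outside it. Its summit was in intergenic sequence 182 bp upstream, at 13519093, with a signal of 85.5 at rank 2146, or 73.4% of the lowest IDR signal. Replicate 1 had it at rank 1824 with a signal of 59.0, and replicate 2 at rank 7946 with a signal of 28.5, with summits 10 and 9 bp from the pooled one. The 3 lists thus shared the place and not the rank. F18H3.1 is transcribed the opposite way and starts 752 bp from cdk-4. For cdk-1, the mitotic kinase gene (chromosome III, 9747472 to 9748852, plus strand), the only pooled region lay 634 bp upstream, in an intron of iff-1, with a signal of 51.3 at rank 16636. The 5′ end of iff-1, on the other strand, was nearer, 355 bp from this summit and 279 bp from the 5′ end of cdk-1. Replicate 2 had the region at rank 13593, and replicate 1 listed no region in the whole window. The 201 bp around the pooled summit did hold an E2F word of 8 bases, and 3 in the shorter form.

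cki-1, which codes for a CDK inhibitor of the CIP/KIP family (chromosome II, 7811240 to 7812105, plus strand), is known as a gene required for cell cycle arrest in starved L1 larvae. Its strongest pooled region, 7810609 to 7810992, peaked 439 bp upstream, between genes. The signal was 73.0 at rank 4100 in the pool, 39.8 at rank 2153 in replicate 2 and 40.8 at rank 9391 in replicate 1, where the summit was 186 bp away. Its signal was 62.7% of the lowest in the IDR list, and neither replicate placed it among its strongest regions. The window held no E2F word and 1 copy of TGCGTC. That word was chosen from these data: among words of 6 bases at least 5 times as frequent around IDR summits as in flanks 400 bp away, it was in the most summit windows, 25% of 924, against 4.22% of 1848 flanks. The summit windows were also richer in G and C than the flanks, with medians of 45.3% and 35.8%. In promoter windows of 300 bp the word was at 8.78% of all protein-coding genes. It was there at 3 of 16 other E2F, cyclin and CDK regulator genes and 3 of 19 DNA replication genes, none with an IDR summit at the promoter. Summit windows were searched only at IDR peaks of the gene lists and at the strongest pooled region of each member without one. Among these the word was in the summit windows of efl-1, lin-54, cul-4 and cki-1, with its middle 1.5 bp from the summit at lin-54. The 30 bp around it are given for the 3 genes where this stretch overlaps no annotated transcript, which leaves out lin-54, read on the strand that shows TGCGTC (efl-1 chrV:16965837-16965866, minus; cul-4, a ubiquitin ligase gene, chrII:7301803-7301832, plus; cki-1 chrII:7810732-7810761, plus).
efl-1: acctttctcgtcTGCGTCtccacctttccc
cul-4: ttatgcagagtcTGCGTCtctcaatatgaa
cki-1: aatttttctctcTGCGTCtctataatcaga
The 3 printed stretches continue the word in the same way, as CTGCGTCTC, and the lin-54 window, where the word lies nearest to the summit, does not. This longer word, which contains the shorter one and was picked after these stretches had been seen, was in 13.6% of the 924 IDR summit windows, in 0.866% of the flanks and in 2.93% of 19973 promoter windows of 300 bp. At cki-1 its middle lay 54 bp from the summit, against 21 bp at efl-1 and 10 bp at cul-4.

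Set beside every protein-coding gene, the promoter regions of the 10 genes covered a wide range. A pooled promoter region as strong as that of efl-1 was found at 0.841% of genes, as strong as that of lin-35 at 1.01%, and as strong as those of cyb-1 and cye-1 at 3.19% and 3.31%. The same share was 5.82% for cdk-4, 7.47% for dpl-1 and 8.45% for cki-1. These 3 genes were therefore below the IDR list, with cdk-4 the nearest to it in the pool. The replicates differed in the order. In replicate 1 the share was 4.55% for cdk-4, 30.1% for dpl-1 and 13.5% for cki-1. In replicate 2 it was 13.7%, 4.53% and 6.02%. In the pool the share was 22.4% for cdk-1 and 33.8% for cyd-1, the latter close to the 35% of genes with any pooled region at the promoter. In replicate 2 it was 20.3% for cdk-1 and 15.2% for cyd-1, and replicate 1 listed no promoter region of either gene.

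**Figure D4:**
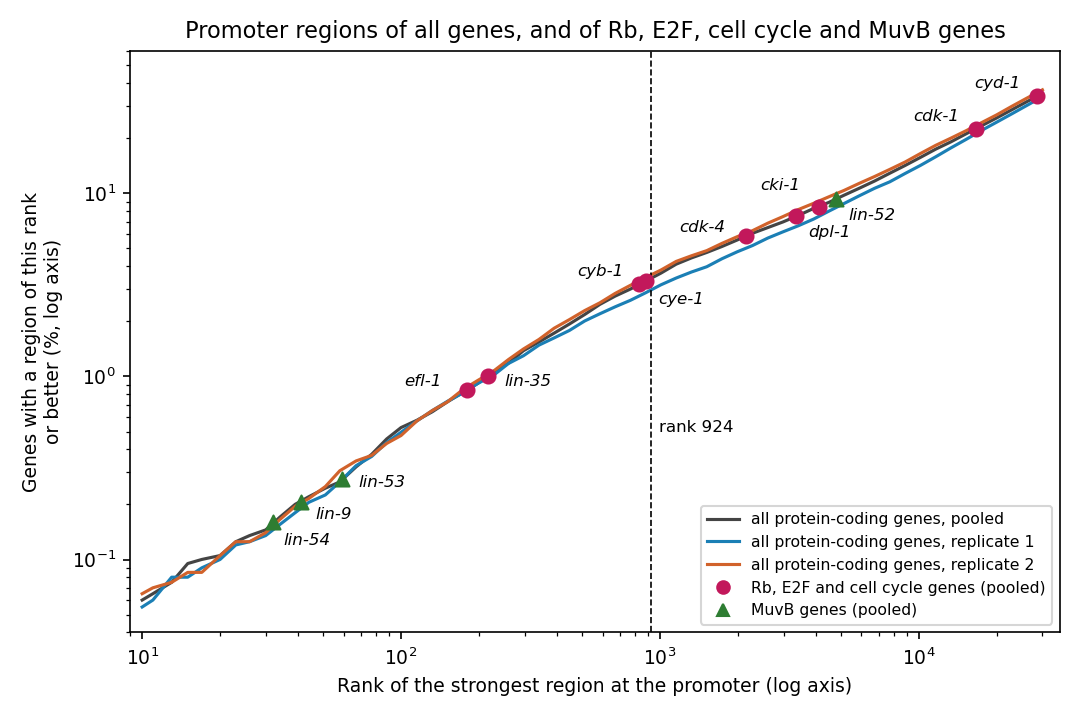
Share of all protein-coding genes (y axis, %, log) whose promoter holds a region of a given rank or better (x axis, log) in the pool and in both replicates, as lines. Points mark the pooled rank of the Rb, E2F and cell cycle genes (circles) and of MuvB genes (triangles): lin-54, lin-9 and lin-53 lie to the left of efl-1 and lin-35, and the dashed line is rank 924.

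Among the partners of LIN-35 and EFL-1 in the DREAM complex, 3 genes had promoter regions that ranked above those of efl-1 and lin-35. Of 5 other DREAM genes, lin-9, lin-53 and lin-54 had an IDR summit at the promoter (60%, against the 3.44% of all genes). With lin-35, efl-1 and dpl-1 that makes 5 of 8 genes of the complex (62.5%), and the same 5 were among the strongest regions of both replicates. lin-9, a MuvB core gene on chromosome III, had a signal of 450 with its summit 159 bp upstream, and ranked 41 in the pool, 66 in replicate 1 and 32 in replicate 2. A region of like rank was that of pcn-1, a DNA replication gene that codes for the replication clamp PCNA (chromosome IV). Its summit lay 250 bp upstream and ranked 39 in the pool, 50 in replicate 1 and 40 in replicate 2. Both sequences are printed for comparison with efl-1 (lin-9 chrIII:8904190-8904390, minus strand; pcn-1 chrIV:4049598-4049798, minus strand), with E2F words in capitals in the shorter form.
lin-9: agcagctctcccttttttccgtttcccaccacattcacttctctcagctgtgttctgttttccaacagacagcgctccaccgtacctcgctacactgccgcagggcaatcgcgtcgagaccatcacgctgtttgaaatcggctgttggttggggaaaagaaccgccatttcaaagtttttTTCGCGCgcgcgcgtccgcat
pcn-1: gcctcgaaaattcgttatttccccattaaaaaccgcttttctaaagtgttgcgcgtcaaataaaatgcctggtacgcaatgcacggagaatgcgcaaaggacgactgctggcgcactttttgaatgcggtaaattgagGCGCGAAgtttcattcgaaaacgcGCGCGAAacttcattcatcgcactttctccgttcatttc
lin-9 held 1 such word, TTTCGCGC when read with the first T, with its middle 82.5 bp from the summit, and pcn-1 held 2, of which 1 had the first T. The IDR peaks were narrow here, 129 bp at lin-9 and 159 bp at pcn-1, against the 384 bp most common in the list.

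lin-54, the DREAM gene that codes for a DNA-binding subunit, ranked 32 in the pool, 49 in replicate 1 and 22 in replicate 2. Its summit lay 380 bp upstream of lin-54 but 13 bp from the 5′ end of rpl-12, a ribosomal protein gene, so position puts it nearer to rpl-12. lin-53, which codes for a histone-binding protein shared with other complexes, ranked 59, 59 and 55, with its summit 231 bp upstream of lin-53 and 236 bp from nra-2. As at the promoters of lin-35, efl-1, cyb-1 and cye-1, both of these regions lie where 2 promoter windows overlap. Of the 510 IDR summits at promoters, 35.5% lay in the windows of at least 2 genes, and so did all 4 promoter summits of the 10 genes described first. A difference between the 2 shares was not tested.

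In the other lists of cell cycle genes, IDR summits lay at the promoters of few genes. None of 6 other synMuv B genes had one at the promoter. Of 16 other E2F, cyclin and CDK regulator genes, cdc-14, a phosphatase gene, had one 75 bp upstream, at rank 535 in the pool and 374 in replicate 1. Replicate 2 had no region within 200 bp of that summit, but its strongest region in the cdc-14 promoter window ranked 804, and another pooled region 210 bp from the summit ranked 1255. Of 12 ubiquitin ligase genes of the cell cycle, cul-4 had one 273 bp upstream, at rank 818 in the pool, 401 in replicate 2 and 15657 in replicate 1. Of 19 DNA replication genes the 2 were pcn-1 and orc-5, and the orc-5 peak is the one described for cyb-1. Of 8 mitosis genes spd-1, which codes for a spindle midzone protein, had a summit 964 bp upstream at rank 668, though Y34D9A.3 starts 43 bp from it. Together with the 5 other DREAM genes, of which lin-9, lin-53 and lin-54 had one, 8 of 66 genes (12.1%) had an IDR summit at the promoter, against 4 of the 10 genes described first and 3.44% of all genes. The difference between the groups was not tested.

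**Figure D5:**
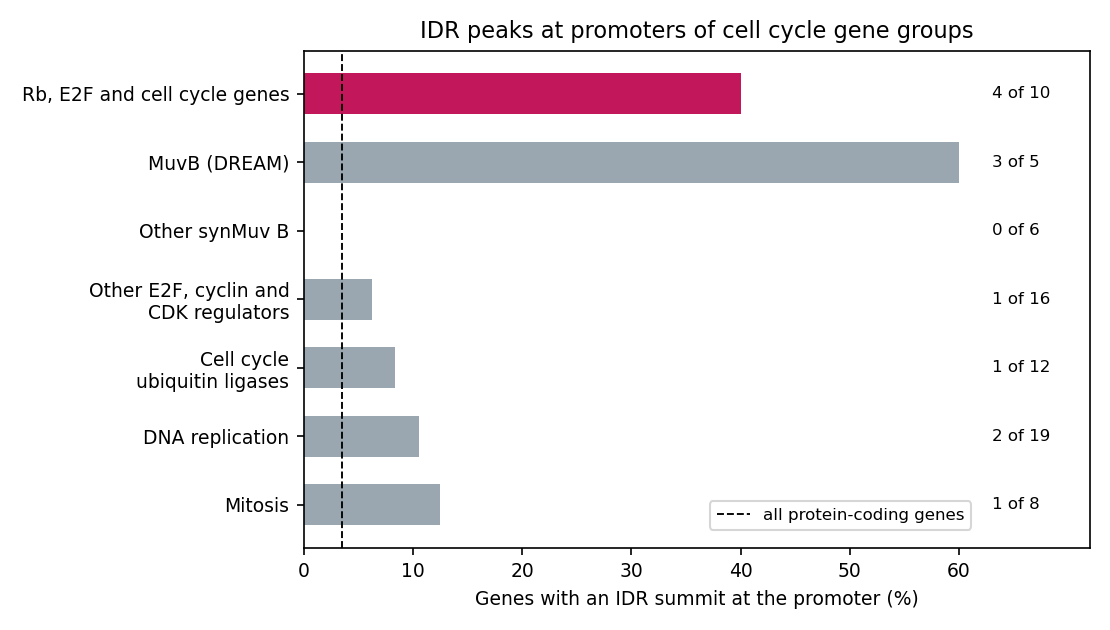
Share of genes (%) with an IDR summit from 1000 bp upstream to 200 bp downstream of the 5′ end, for the 10 Rb, E2F and cell cycle genes (red) and 6 other gene lists (grey), with counts at the right and the share of all protein-coding genes, 3.44%, as a dashed line. The DREAM (MuvB) list and the 10 genes stand highest, at 3 of 5 and 4 of 10, and the other lists hold 0 to 2 genes each.

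E2F words were found at strong and at weak regions of the 10 genes, and were absent from others of both kinds. The words of 8 bases were in 7.25% of the 201 bp windows at IDR summits, in 3.3% of the flanks and in 4.69% of 300 bp promoter windows (250 bp upstream to 50 bp downstream). In the shorter form the shares were 17%, 6.06% and 9.2%. Of the 5 IDR summits at the 10 genes, those at efl-1 and the cye-1 promoter held a word of 8 bases, that at cyb-1 the shorter form, and those at lin-35 and in the cye-1 intron neither. In contrast, the weak cdk-1 region held one. In the 300 bp promoter windows, efl-1 and cyd-1 held an E2F word of 8 bases, 2 of 10 genes, whereas 12 of the 19 DNA replication genes did (63.2%). Of those 12 genes pcn-1 alone had an IDR summit at the promoter, where the share over all genes was 3.44%. CHR words (TTTGAA and TTCGAA on either strand), named for the cell cycle homology region that MuvB binds, were in 39.1% of IDR summit windows, 54.1% of flanks and 68.9% of promoters. The promoter windows were longer (300 bp against 201 bp), and median G and C content was 45.3%, 35.8% and 34.3%. Among the 10 genes, CHR words were in the windows of efl-1 and of both cye-1 peaks. They were also in those of the weaker dpl-1, cdk-1 and cdk-4 regions. No match in such a window says only that these letters are absent there.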

How the data were processed

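The authors called regions separately in each replicate and in the pool, per the deposited descriptions, and derived the IDR list from those calls, on ce11. For the aligner and caller, their versions and the IDR cutoff, nothing is given in the sources used here. Column 7, the deposited signal, is the authors' strength of a region and served only for ranks within a list. The deposited −log10 of the authors' q-value ran from 1.43 to 3.01 among IDR peaks and entered no ranking. Summits are the region start plus the authors' deposited offset.

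Genes came from Ensembl release 115 on WBcel235, the same assembly as ce11, and sequences from that RefSeq genome. Positions count from 1. Python 3.11.15, pandas 2.3.3, numpy 2.4.6 and matplotlib 3.10.9 were used. The assignment of summits to windows was tested on simulated data. Members and gene lists were chosen with earlier results of these data known, so no test was run and counts stand beside the same count over all genes. Genes named are the 10 members, genes that share their peaks or promoters, and list genes with an IDR summit at the promoter. Alternatives changed the window, the 5′ ends, the list length, the rule for giving a region to a gene, and the replicate. The match distance of 200 bp was not varied. Control alignments were not used here.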

Additional observations from a re-analysis of the deposited data

How the results depend on the processing

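The count of genes with an IDR summit in the gene or 2000 bp upstream, 4 of 10, fell to 2 when a summit was given to the nearest 5′ end within 2000 bp only (efl-1 and cye-1, against 3.14% of all genes) and to 2 with the 462 strongest peaks (against 2.96%). It stayed at 4 with 1000 bp upstream (against 4.34%) and with 5′ ends of all transcripts (5.30%). It was also 4 with overlap of the region by 1 bp (5.80%) and with replicate 1 alone (5.10%). With 500 bp upstream (3.62%) and with replicate 2 alone (5.53%) it was 3. At the promoter, 4 of 10 became 2 with a window of 500 bp upstream to 100 bp downstream (against 2.67%) and 2 with the 462 strongest peaks (against 1.99%). It was 2 to 3 with the strongest regions of 1 replicate in place of the IDR list (against 3.57% and 2.94%). The nearest 5′ end rule used no promoter window, and under it cye-1 was counted through its intronic peak. The count in both replicates, 3 of 10, was 2 with 462 regions each (against 2.13%), 4 with 1848 (against 5.01%) and 2 at the promoter only (against 2.28%). Of 19 ranks of single genes in the replicates, 10 were within 1.5 times of the pooled rank. Depth is unknown, so the limit it sets on weak regions is too.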

Other observations

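Some further values were chosen after they had been seen. Among DNA replication genes outside the IDR list, the promoter region of cdc-6, a licensing factor gene, ranked 1008 in the pool, 407 in replicate 2 and 19181 in replicate 1. Of the 6 genes of the replicative helicase, mcm-4 ranked 1085 in the pool, 1062 in replicate 1 and 4780 in replicate 2. For mcm-5 the ranks were 4138 in the pool and 1155 in replicate 2, with no region in replicate 1. For mcm-2 the pooled rank was 10786, and mcm-3, mcm-6 and mcm-7 had no pooled promoter region. Of the DREAM genes without an IDR peak, lin-52 had a promoter region at rank 4784 in the pool and 3243 in replicate 1 with none in replicate 2, and lin-37 had none in the pool.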
